A study of Canis lupus familiaris and Dasypus novemcinctus and Ornithorhynchus anatinus with 3 samples.

Results

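The proteasome genes were taken as all genes whose symbol begins with PSMA, PSMB, PSMC, PSMD, PSME, PSMF or PSMG and a number, without PSMB8, PSMB9 and PSMB10, and which had a row in the tables of at least 2 of 3 species. This gave 42 of the 12474 genes that could be matched between at least 2 species. Messenger RNA had been sequenced from the lining of the uterus (endometrium) during pregnancy in dog and armadillo, both eutherians (placental mammals), and in platypus, which lays eggs. Each species had 1 library with no treatment named, and the labels give neither strain, age, stage of pregnancy nor the number of animals. Every value is therefore a measurement without a replicate, no test between species was possible, and the intervals given cover counting error only.

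The proteasome is the protease that degrades proteins tagged with ubiquitin. Its core is a barrel with outer rings of alpha subunits (PSMA), which gate the entrance, and inner rings of beta subunits (PSMB), of which PSMB5, PSMB6 and PSMB7 carry the cutting sites. The regulatory cap consists of a base, whose ring of ATPases (PSMC) unfolds the substrate, and a lid (most PSMD genes), which removes the ubiquitin. Other caps (PSME) open the core in place of this one, and dedicated chaperones (PSMG, PSMD5, PSMD9 and PSMD10) assemble it. Each subunit of the core and of this cap has a fixed place in the complex, and cells usually make them in matched amounts.

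Of the 42 genes, 7 encode alpha subunits, 8 beta subunits, 8 base subunits, 8 lid subunits, 4 other caps and an inhibitor, and 7 assembly factors, so the set is wider than subunits in the strict sense. There were 38 with a row in the dog table, 37 in the armadillo table, 33 in the platypus table and 24 in all 3. PSMA8, an alpha subunit known from the testis (1 read), PSMC3IP, a recombination factor and no subunit (32.7 CPM), and PSME1, the partner of PSME2 (200.6 CPM), had a row in dog alone. PSMD4, a ubiquitin receptor of the base, had a row in armadillo alone (227 CPM), and these 4 genes were left out by the rule. Levels are given as CPM, the reads of a gene scaled to a common library total. The totals were 13625465 reads (dog), 13218476 reads (armadillo) and 2243556 reads (platypus). A count of 0 allows a level of up to 3 reads, equal to 0.220 CPM in dog and 1.34 in platypus. In armadillo 3 reads equal 0.227 CPM, but no gene is listed at 0 there, so a gene without a read has no row. CPM is not corrected for gene length, so folds compare the same gene between species and include any difference between the gene models.

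The genes chosen to mark the set, PSMB4 and PSMD2, were abundant in the eutherians and not in platypus. PSMB4, a beta subunit (ENSCAFG00000012707, ENSDNOG00000018255 and ENSOANG00000001676), stood at 333 CPM (95% interval 323 to 342) in dog and 246 (237 to 254) in armadillo, and was listed at 0 in platypus. PSMD2, a scaffold of the base to which ubiquitin shuttles bind (ENSCAFG00000012608, ENSDNOG00000002073 and ENSOANG00000007604), stood at 744 CPM (730 to 759) in dog and 879 (863 to 895) in armadillo, against 12.0 (7.93 to 17.5; 27 reads) in platypus. The platypus table thus went against these markers, while many other proteasome genes were at their highest in that species.

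**Figure D1:**
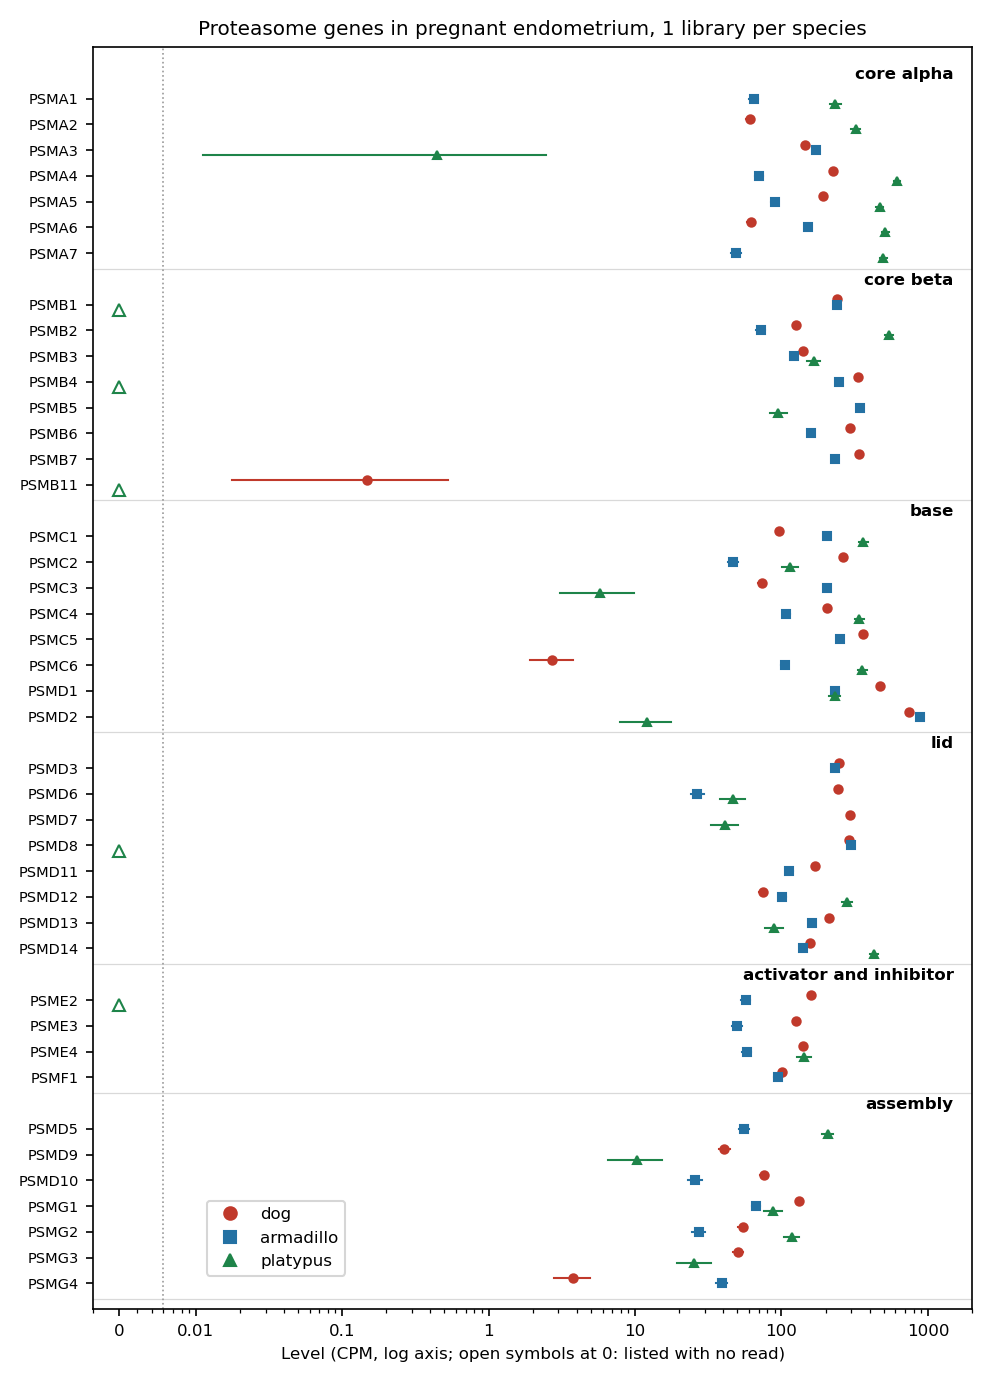
Level of each of the 42 proteasome genes (rows, by role) in CPM on a log axis, with exact Poisson 95% intervals, in dog (circles), armadillo (squares) and platypus (triangles). Open triangles left of the dotted line are genes listed at 0 in platypus: PSMB1, PSMB4, PSMB11, PSMD8 and PSME2. Most alpha subunits lie furthest right in platypus, and PSMC6 lies far left in dog of its levels in armadillo and platypus.

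The tissues differed in cell markers, and each library is of bulk tissue, in which fewer cells of a type and less RNA per cell cannot be told apart. Of 6 epithelial markers, those with a row (2 in dog, 4 in armadillo, 3 in platypus) summed to 2353 CPM in dog and 833 in armadillo, against 6.69 in platypus. Of 4 smooth muscle markers, 3 had a row in each library, but not the same 3. They summed to 23.6 CPM in dog and 24962 in armadillo, against 2417 in platypus. Only MYH11 had a row in every library, at 1.61, 10803 and 277 CPM in the same order. The 5 stromal markers summed to 626 (2 with a row), 21749 and 6974 CPM (5 each), but did not move together. DCN (1668 CPM in armadillo, 5099 in platypus) and LUM (333 and 1250) were higher in platypus. VIM, COL1A1 and COL3A1 were higher in armadillo than in platypus. Markers of antibody-secreting cells, which are known for high secretory load, reached 23.3 CPM in dog (2 of 4 with a row), 1.36 in armadillo (1 of 4) and 2103 in platypus (2 of 4). Endothelial markers summed to 31.0, 1620.0 and 20.1 CPM (1, 2 and 3 of 4 with a row, with VWF and KDR at 0 in platypus), leukocyte markers to 13.1, 134 and 0.446 CPM (3, 3 and 1 of 4), and markers of uterine tissue to 22.9, 16.7 and 1921 CPM (3, 2 and 4 of 5) in dog, armadillo and platypus. No uterine marker with a row exceeded 11.5 CPM in dog or 14.3 CPM in armadillo. The part of these differences in the levels of proteasome genes was not tested.

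Alpha subunits, which form the outer rings of the core and its gate, were higher in platypus than in the eutherians, with PSMA3 the exception. PSMA4 stood at 226 CPM (95% interval 218 to 234) in dog and 70.1 (65.7 to 74.8) in armadillo, against 616 (584 to 649) in platypus. PSMA5 stood at 191 CPM (183 to 198), 89.6 (84.6 to 94.9) and 467 (439 to 496), and PSMA6 at 62.0 (57.9 to 66.3), 152 (145 to 158) and 512 (483 to 542) in the same order of species. In all 3 genes platypus lay above both eutherians with intervals apart, whereas dog lay above armadillo for PSMA4 and PSMA5 and below it for PSMA6.

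The remaining alpha subunits had a row in only 1 eutherian or differed in direction. PSMA2 was at 61.1 CPM in dog and 320.5 in platypus. PSMA1 was at 64.5 CPM in armadillo and 233 in platypus, and PSMA7 at 49.0 in armadillo and 496 in platypus, which was the largest fold in favour of platypus among the proteasome genes matched between these libraries. PSMA3 (ENSOANG00000011835 in platypus) went the other way, with 145 CPM (139 to 152) in dog and 172 (165 to 179) in armadillo, against 0.446 (0.0113 to 2.48) in platypus, where it had 1 read. The interval of PSMA3 in platypus lay far below those in both eutherians. A value at or near 0 for a gene that all cells use can be a failed estimate, which was not tested for this or the other such genes.

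Beta subunits, which form the inner rings, were divided in platypus. PSMB2 stood at 127 CPM (95% interval 121 to 133) in dog and 72.0 (67.5 to 76.7) in armadillo, against 543 (513 to 575) in platypus. PSMB3 was at 140.4 (134 to 147), 121 (116 to 128) and 167 (150 to 184) CPM in dog, armadillo and platypus. PSMB1 was at 240.1 CPM in dog and 238 in armadillo and, like PSMB4, was listed at 0 in platypus. The levels of PSMB1 in the eutherians had overlapping intervals (232 to 248 and 230 to 247).

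The catalytic subunits could be compared in only some species. PSMB5, which cuts after hydrophobic residues, stood at 346 CPM (336 to 356) in armadillo and 95.4 (83.0 to 109) in platypus. PSMB6, which cuts after acidic residues, stood at 293 CPM (284 to 303) in dog and 159.5 (153 to 167) in armadillo, and PSMB7, which cuts after basic residues, at 340.1 (330 to 350) in dog and 231 (222 to 239) in armadillo. Both were higher in dog, by 1.84-fold (1.74 to 1.94) and 1.47-fold (1.41 to 1.54). PSMB11, a beta subunit known from the thymus cortex, had 2 reads in dog (0.147 CPM, 0.0178 to 0.530) and 0 in platypus, both within the limit that 3 reads set.

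Base subunits showed outliers in dog and in platypus. Of the ATPases, PSMC1 stood at 96.4, 204 and 361 CPM, PSMC2 at 264, 46.6 and 115, PSMC3 at 73.3, 206 and 5.79 (13 reads) and PSMC4 at 205, 108 and 341 CPM in dog, armadillo and platypus. PSMC6 stood at 2.72 CPM (95% interval 1.91 to 3.74; 37 reads) in dog and 105 (100 to 111) in armadillo, against 357 (333 to 383) in platypus. PSMC6 in dog and PSMC3 in platypus thus lay far below the levels of the same gene in the other species. PSMC5 stood at 363 CPM in dog and 253 in armadillo. PSMD1, the other large scaffold of the base, stood at 468 CPM (456 to 479) in dog and 234 (226 to 242) in armadillo, against 231 (212 to 252) in platypus, so that the intervals of armadillo and platypus overlapped in CPM. With median-of-ratios scaling the log2 fold of PSMD1 for armadillo over platypus was -0.25, outside the counting interval in CPM.

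Among lid subunits PSMD14, the enzyme that removes the ubiquitin chain, stood at 157 CPM (151 to 164) in dog and 141 (134 to 147) in armadillo, against 431 (405 to 460) in platypus. PSMD12, a structural lid subunit, also had its highest level in platypus, at 75.1, 101 and 279 CPM in dog, armadillo and platypus. PSMD7, the partner of PSMD14, stood at 293 CPM in dog and 41.0 in platypus, and PSMD13 at 212, 162 and 89.1 CPM in dog, armadillo and platypus. The enzyme of the lid was thus highest in platypus while its partner was lower there than in dog.

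PSMD8, another structural lid subunit, stood at 288 CPM (279 to 297) in dog and 296 (287 to 306) in armadillo and was listed at 0 in platypus. PSMD6 stood at 243 CPM (234 to 251) in dog and 26.7 (24.0 to 29.6) in armadillo, against 46.8 (38.3 to 56.7) in platypus, with dog far above the other species. PSMD3 was at 248 CPM in dog and 231 in armadillo, and PSMD11 at 168 and 113.

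The alternative caps were higher in dog than in armadillo. PSME2, a subunit of the interferon-inducible activator, stood at 158 CPM (152 to 165) in dog and 56.8 (52.8 to 61.0) in armadillo and was listed at 0 in platypus. PSME3, a nuclear activator, stood at 125 CPM in dog and 49.9 in armadillo. PSME4, a large activator known for its part in DNA repair and sperm formation, stood at 141 (134 to 147), 57.8 (53.8 to 62.0) and 143 (127 to 159) CPM in dog, armadillo and platypus, so that the intervals of dog and platypus overlapped in CPM. The log2 fold of PSME4 for dog over platypus was -0.02 in CPM, -0.61 with median-of-ratios scaling and -0.40 with upper-quartile scaling. PSMF1, a proteasome inhibitor and transport adaptor, was nearly level, at 101 CPM (96.1 to 107) in dog and 94.1 (89.0 to 99.5) in armadillo, and with median-of-ratios scaling its log2 fold turned to -0.21.

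Of the assembly factors, PSMG1 and PSMG2 form a pair that builds the alpha ring. PSMG1 stood at 132 CPM (125 to 138) in dog and 66.8 (62.5 to 71.4) in armadillo, against 87.8 (76.0 to 101) in platypus, and PSMG2 at 54.5 (50.6 to 58.5), 27.3 (24.6 to 30.3) and 118 (104 to 133). In CPM dog was highest for PSMG1 and platypus for PSMG2, but with median-of-ratios scaling PSMG1 had a log2 fold of -0.01 for dog over platypus, so this difference in order was lost. PSMG3 was at 50.5 CPM in dog and 25.4 in platypus. PSMG4, the partner of PSMG3, stood at 3.74 CPM (2.79 to 4.92; 51 reads) in dog and 39.3 (36.0 to 42.8) in armadillo. The chaperones of the base were PSMD5, at 55.5 CPM in armadillo and 206 in platypus, PSMD9, at 40.8 in dog and 10.3 (23 reads) in platypus, and PSMD10, at 76.0 in dog and 25.6 in armadillo.

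Summed over the 24 genes with a row in all 3 tables, the proteasome took 4777 CPM (95% interval 4741 to 4814) in dog and 3878 (3845 to 3912) in armadillo, against 4923 (4831 to 5015) in platypus. The totals of dog and platypus were close in CPM, although 4 of the 24 genes were at 0 in platypus, and with median-of-ratios scaling they were 3809 in dog and 3866 in armadillo, against 5908 in platypus. Without those 4 genes, a choice made after the values were seen, the sums were 3758, 3041 and 4923 CPM. By role, 4 alpha subunits summed to 624 CPM in dog and 483 in armadillo, against 1595 in platypus. The 4 beta subunits summed to 839.5 (824 to 855), 678 (664 to 692) and 710.0 (676 to 746) CPM, and the 7 base subunits to 1854, 1782 and 1422 CPM. PSMD2 alone gave 744, 879 and 12.0 CPM of the base sums, a wider gap to platypus than that between the sums themselves. The 5 lid subunits summed to 975, 727 and 847 CPM, the 2 activators to 299, 115 and 143 CPM and the 2 assembly factors to 186, 94.1 and 205 CPM in the same order. With median-of-ratios scaling the order changed for the beta subunits (669, 675 and 852), the base (1478, 1776 and 1707) and the lid (777, 724 and 1016). The alpha subunits were the role in which platypus stood furthest above the eutherians with either scaling.

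**Figure D2:**
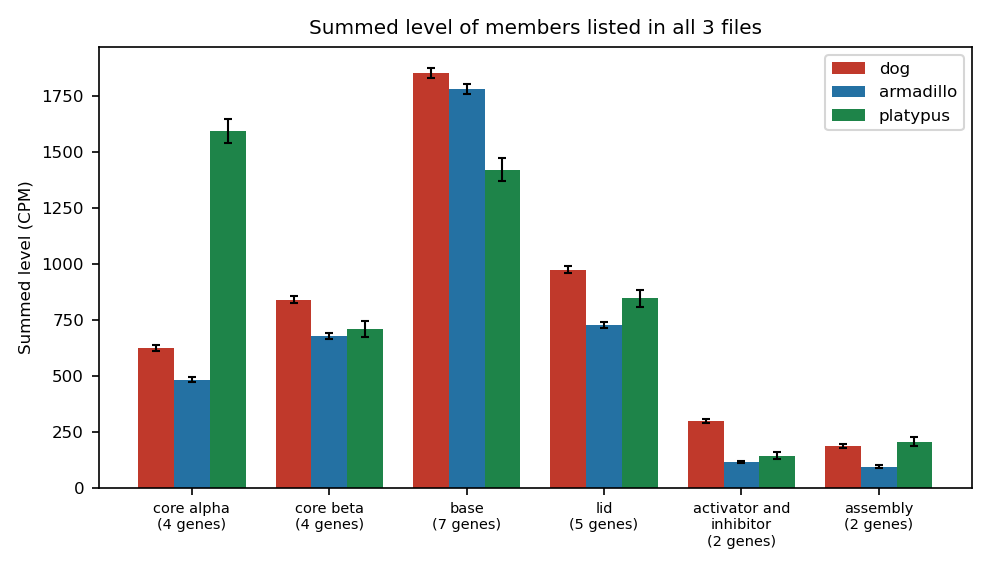
Summed level (CPM, axis from 0) of the proteasome genes with a row in all 3 tables, by role, in dog, armadillo and platypus, with exact Poisson 95% intervals as error bars. The alpha subunits sum to 624 CPM in dog and 483 in armadillo, against 1595 in platypus.

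Platypus had the highest level of the 3 libraries for 12 of the 24 genes, the lowest for 9 and the middle for 3. Over the 6351 genes matched in all 3 tables, platypus was highest for 22.9%, lowest for 56.3% and in the middle for 20.8%. With median-of-ratios scaling the counts were 13 genes highest and 8 lowest, beside 27.8% and 52.1% of all genes. The order was not particular to the proteasome. Of 26 cytosolic ribosomal protein genes, platypus was highest in CPM for 12 (46.2%) and lowest for 10 (38.5%). The proteasome genes with platypus highest in CPM were PSMA4, PSMA5, PSMA6, PSMB2, PSMB3, PSMC1, PSMC4, PSMC6, PSMD12, PSMD14, PSME4 and PSMG2. For PSMB3 the interval of platypus lay just above that of dog, and for PSME4 the intervals overlapped. Of the 24 genes 16.7% were at 0 in platypus, beside 25.6% of all 6351 genes. Of the 23 proteasome genes at 20 CPM or more in dog and armadillo 17.4% were at 0 there, beside 16.2% of all 2689 genes at that level. This second background was chosen after the values were seen.

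Dog was set against platypus over 29 shared proteasome genes. A gene was counted as different when the fold of CPM + 1 reached 4 and the higher library had 5 CPM or more. By this limit 9 were higher in dog and 4 in platypus, beside 32.0% and 9.93% of the 9026 genes matched between these libraries. The share of proteasome genes on the dog side, 31.0%, was near that background, and the share on the platypus side was 13.8%. The median log2 fold of the members was 0.58, beside 0.61 for all genes, and without genes at 0 it was -0.13 over 24 members, beside 0.51 over all genes. Setting genes at 0 to 3 reads gave 0.58 and 0.34. Scaling mattered: median-of-ratios scaling shifted the median of all genes by -0.36, and then 8 members were higher in dog and 8 in platypus, beside 27.2% and 13.5% of all genes.

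The folds between dog and platypus spread over both directions within a role. PSMD2 was 61.9-fold (95% interval 42.5 to 93.9) and PSMC3 12.7-fold (7.37 to 23.8) higher in dog. PSMB4 was at least 249-fold, PSMD8 at least 216-fold, PSMB1 at least 179.5-fold and PSME2 at least 118-fold higher in dog, taking 3 reads as the floor in platypus. These bounds leave out the counting error in dog and are not 95% limits. PSMA3, with its 1 platypus read, gave a ratio of 326 (58.5 to 12890), and PSMD7 and PSMD6 were 7.13-fold (5.80 to 8.87) and 5.18-fold (4.27 to 6.36) higher in dog, where PSMD6 was below the limit after median-of-ratios scaling (log2 fold 1.77). On the other side PSMC6 was 131-fold (94.6 to 188), PSMA6 8.25-fold (7.54 to 9.03), PSMA2 5.25-fold (4.74 to 5.81) and PSMB2 4.29-fold (3.99 to 4.62) higher in platypus. After median-of-ratios scaling PSMA4, PSMC1, PSMD12 and PSMD14 also passed the limit on the platypus side. The smallest folds, leaving aside PSMB11, were those of PSME4 (1.01-fold higher in platypus, 0.898 to 1.14), PSMB3 (1.19-fold higher in platypus, 1.06 to 1.33) and PSMG1 (a log2 fold of 0.58), and PSMG1 turned to -0.01 with median-of-ratios scaling.

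By role, the log2 folds of dog over platypus had a median of -1.44 for 5 alpha subunits, 0.20 for 5 beta subunits, 1.01 for 7 base subunits, 1.79 for 6 lid subunits, 3.65 for 2 activators and 0.77 for 4 assembly factors. The sign of each of these medians was the same under the 3 other scalings that were tried, but for the beta subunits this was fixed in advance. Their median was the fold of PSMB11 itself, with 2 reads in dog and 0 in platypus, and no scaling can turn the sign of such a fold. The sign for the 2 activators rested on PSME2 (7.32), at 0 in platypus, with PSME4 at -0.02. With genes at 0 set to 3 reads, however, the median of the beta subunits was -0.25 and that of the activators 3.04, while the other medians did not move. Past the limit on the dog side lay 1 of 5 alpha, 2 of 5 beta, 2 of 7 base and 3 of 6 lid subunits and 1 of 2 activators, beside 32.0% of all genes. On the platypus side lay 2 alpha subunits, 1 beta and 1 base subunit, beside 9.93% of all genes, and no assembly factor passed the limit in either direction. These roles hold too few genes to be read against those shares.

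Armadillo was set against platypus over 28 shared genes, with the same platypus library. Here 7 were higher in armadillo and 5 in platypus, or 25% and 17.9% of the members, beside 36.1% and 11.0% of 7296 matched genes. The median log2 fold of the members was -1.05, beside 1.06 for all genes, and without genes at 0 it was -1.37 over 24 members, beside 0.41. Setting genes at 0 to 3 reads gave -1.05 and 0.79. So the middle of the proteasome genes lay on the platypus side and the middle of all genes on the armadillo side. No gene is listed at 0 in armadillo, while 1903 of the 7296 matched genes were at 0 in platypus. The median and shares of all genes therefore lean to armadillo. Median-of-ratios scaling gave 7 genes higher in armadillo and 9 in platypus, beside 34.0% and 13.2% of all genes, and a shift of -0.18 for all genes.

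The genes higher in armadillo were PSMD2 at 73.0-fold (95% interval 50.2 to 111), PSMC3 at 35.5-fold (20.7 to 66.8), PSMA3 at a ratio of 385 (69.1 to 15218) over 1 read, and the 4 genes at 0 in platypus. Of those PSMD8 was at least 222-fold, PSMB4 at least 184-fold, PSMB1 at least 178-fold and PSME2 at least 42.5-fold higher in armadillo, by the same floor of 3 reads and again not as 95% limits. The genes higher in platypus were PSMA7 at 10.1-fold (9.18 to 11.2), PSMA4 at 8.78-fold (8.08 to 9.56), PSMB2 at 7.54-fold (6.93 to 8.22), PSMA5 at 5.21-fold (4.79 to 5.67) and PSMG2 at 4.31-fold (3.66 to 5.06). After median-of-ratios scaling PSMA1, PSMA6, PSMC6 and PSMD5 joined them. The smallest folds were those of PSMD1 (1.01-fold higher in armadillo, 0.920 to 1.11), which turned to a log2 fold of -0.25 with median-of-ratios scaling, PSMG1 (1.31-fold higher in platypus, 1.12 to 1.54) and PSMB3 (1.37-fold higher in platypus, 1.22 to 1.54). The log2 folds of armadillo over platypus had a median of -2.10 for 6 alpha subunits, 1.85 for 5 beta subunits, -0.82 for 7 base subunits, -0.79 for 5 lid subunits, 2.28 for 2 activators and -1.88 for 3 assembly factors, each with the same sign under the other scalings. With genes at 0 set to 3 reads the median of the activators was 1.67. The activators went opposite ways, with PSME2, at 0 in platypus, at 5.85 and PSME4 at -1.29. The sign of their median thus rested on PSME2 alone.

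**Figure D3:**
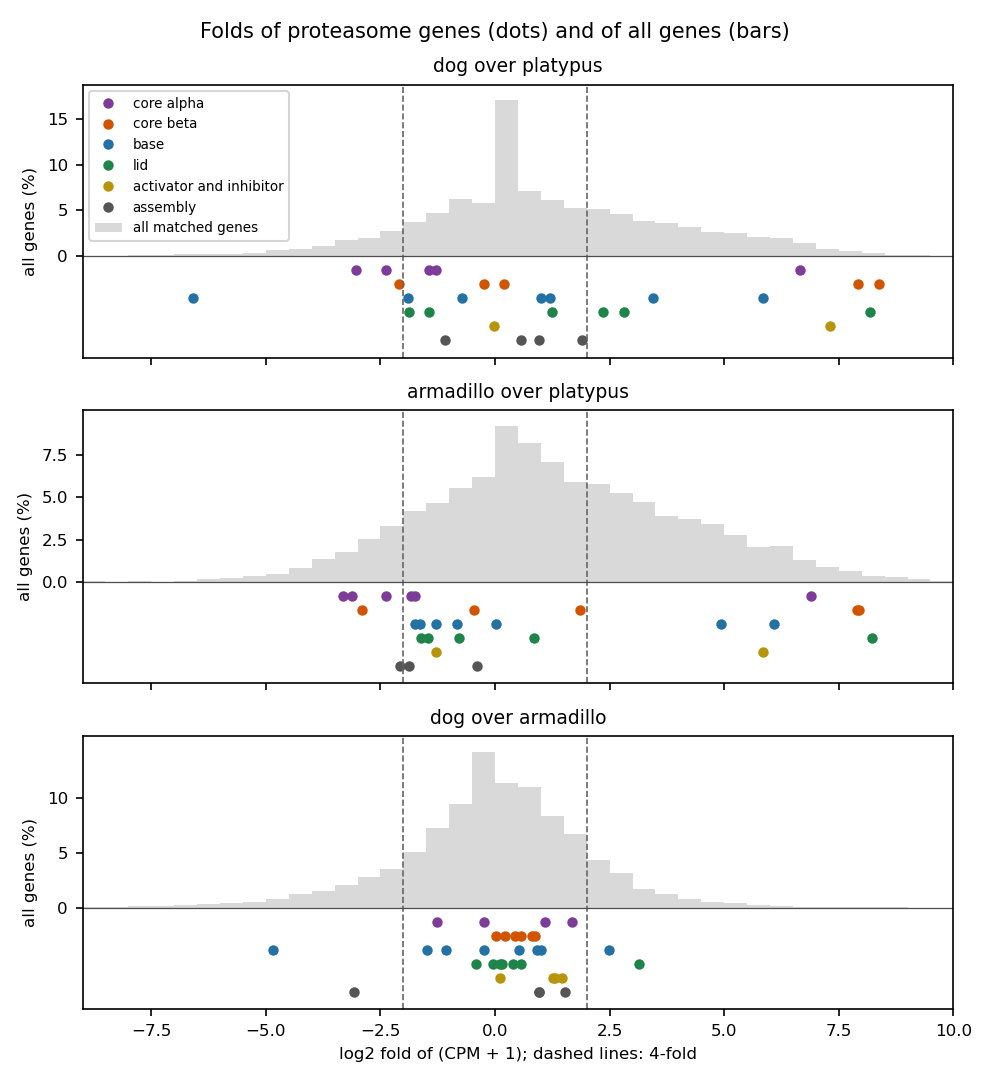
Log2 fold of CPM + 1 of the proteasome genes (dots, 1 row per role) below the distribution of all matched genes (grey bars, percent of genes in bins of 0.5) for dog over platypus, armadillo over platypus and dog over armadillo, with dashed lines at 4-fold. Members lie on both sides in the comparisons with platypus, and between dog and armadillo 29 of 33 lie within the dashed lines.

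Between dog and armadillo, the 2 eutherians, few proteasome genes passed the limit. Of 33 shared proteasome genes 2 passed the limit on the dog side and 2 on the armadillo side (6.06% each), beside 12.6% and 13.2% of 8854 matched genes. With median-of-ratios scaling the members' counts were again 2 and 2, beside 9.76% and 15.2%. The log2 folds of the members had an interquartile range of 1.04, beside 2.22 for all genes. PSMD6 was 9.09-fold (95% interval 8.14 to 10.2) and PSMC2 5.67-fold (5.20 to 6.18) higher in dog. PSMC6 was 38.8-fold (28.0 to 55.4) and PSMG4 10.5-fold (7.86 to 14.3) higher in armadillo, and these were the genes with the fewest dog reads apart from PSMB11. Next came PSMA4 at 3.22-fold (2.99 to 3.47) higher in dog and PSMC3 at 2.81-fold (2.61 to 3.02) higher in armadillo.

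Most other members lay slightly on the dog side. The log2 fold was above 0 for 24 of 33 genes, beside 50.1% of all genes, and the median was 0.52, beside 0.00. Of all matched genes 522 were at 0 in dog, while none is listed at 0 in armadillo. Without genes at 0, 53.2% of all genes were above 0 and their median was 0.14. After median-of-ratios scaling, which shifted the median of all genes by -0.21, 19 of 33 were above 0, beside 43.8%, and the median was 0.20. The 3 smallest folds were those of PSMB1 at 1.01-fold (0.960 to 1.06), PSMD8 at 1.03-fold higher in armadillo (0.983 to 1.07) and PSMD3 at a log2 fold of 0.10, which turned to -0.22 with median-of-ratios scaling, as PSMB1 did to -0.31. In CPM all 6 beta subunits had log2 folds between 0.01 and 0.87, all 4 caps and inhibitors between 0.11 and 1.46, and 6 of 7 lid subunits between -0.43 and 0.57. The log2 fold of PSMB3 was 0.21 and turned to -0.11 with median-of-ratios scaling. The median was 0.42 for 4 alpha subunits, 0.50 for 6 beta subunits, 1.29 for 4 caps and inhibitors and 0.97 for 4 assembly factors. It was 0.14 for 8 base subunits and 0.16 for 7 lid subunits, which changed sign to -0.18 and -0.16 with median-of-ratios scaling and to -0.19 and -0.17 with upper-quartile scaling.

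Across genes, the CPM of the members ranked with a Spearman correlation of 0.54 between dog and armadillo (33 genes), -0.17 between dog and platypus (29 genes) and -0.30 between armadillo and platypus (28 genes). Over all matched genes these values were 0.63, 0.46 and 0.38. Genes are not independent replicates, and gene length, which enters CPM in each library, is shared between the points, so these values only describe the libraries.

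Levels of different subunits could be set against each other in dog, for which the authors' deposited table also holds a relative abundance that is scaled to gene length. On that scale 38 proteasome genes had a median of 94.7, beside 2.99 over all 19290 listed dog genes. The beta subunits were highest, with a median of 195 over 6 genes without PSMB11 and a ratio of highest to lowest of 2.40, led by PSMB6 at 229.6, PSMB4 at 227 and PSMB7 at 216. The 5 alpha subunits had a median of 101 and ran between PSMA6 at 39.5 and PSMA4 at 139, a ratio of 3.52. The 8 lid subunits had a median of 105 and ran between PSMD12 at 32.3 and PSMD7 at 181, a ratio of 5.61. The assembly factors had a median of 38.4 and the caps and inhibitor a median of 62.2, with PSME4 at 16.3.

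In the base, PSMC6 stood apart on this length-scaled measure also, at 1.03, against 29.9 to 175 for the other 7 base genes, of which PSMC3 was lowest and PSMC5 highest. That put PSMC6 at percentile 42.1 of listed dog genes, while PSMC3 was at percentile 82.8 and PSMC5 at percentile 98.1. PSMG4 was at 5.79 (percentile 56.8). No such measure was used for armadillo or platypus.

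**Figure D4:**
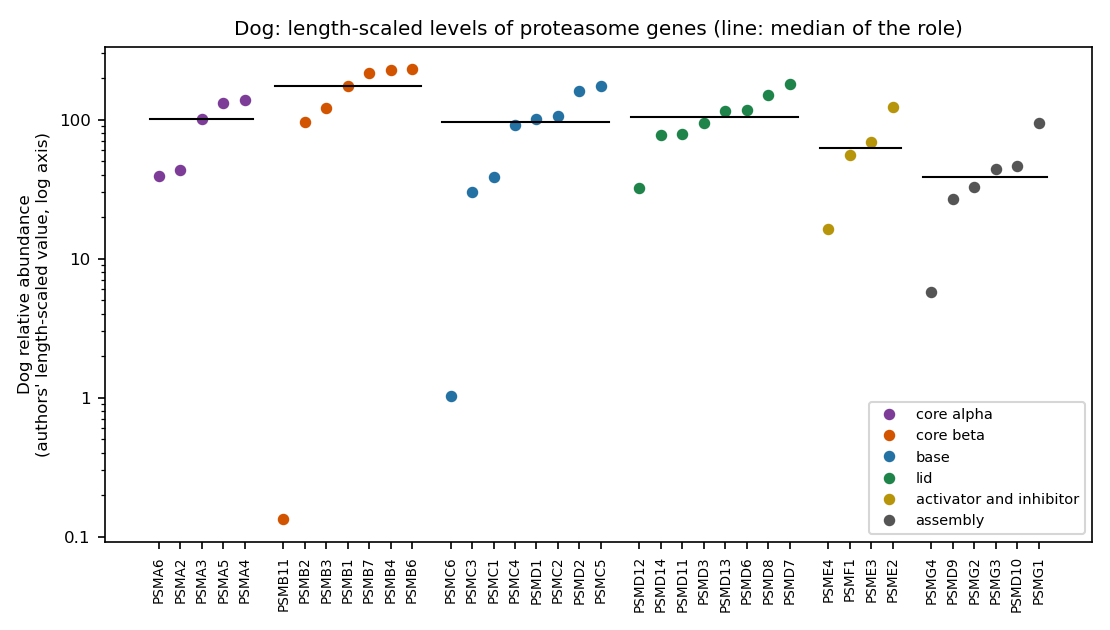
Relative abundance of 38 proteasome genes in dog (the authors' length-scaled value, log axis), ordered within each role, with a line at the median of the role. The beta subunits other than PSMB11 lie between 95.8 and 229.6, and PSMC6 lies at 1.03.

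Of the immunoproteasome genes left out by the rule, PSMB10 stood at 67.2 CPM in dog and 74.3 in armadillo and was listed at 0 in platypus, and PSMB8 had 5 reads (2.23 CPM) in platypus. Proteins that bind the proteasome but carry other symbols were also examined. SHFM1, a small lid subunit, stood at 119 CPM in dog and 70.5 in armadillo, against 582 in platypus, at least 4-fold above both eutherians. KIAA0368, the adaptor known as ECM29 in yeast, stood at 486 CPM in dog and 321 in armadillo, against 29.4 in platypus. ADRM1, a ubiquitin receptor of the base, stood at 269, 52.9 and 182 CPM in dog, armadillo and platypus, and the deubiquitinases that trim chains at the cap at 164, 48.3 and 241 CPM for USP14 and 106, 10.6 and 21.8 CPM for UCHL5. POMP, the maturation factor of the core, was at 71.0 CPM in armadillo and 72.7 in platypus. Against platypus, 2 of 6 genes of this list were higher in dog and 1 lower, beside 32.0% and 9.93% of all genes, so that the dog side was near the background. Of 7 genes 1 was higher in armadillo than in platypus and 2 lower, beside 36.1% and 11.0%. Between the eutherians 2 of 6 were higher in dog and none in armadillo, beside 12.6% and 13.2%.

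Genes that supply ubiquitin or bring substrates passed the limit on the dog side against platypus in 6 of 9 cases (66.7%), beside 32.0% of all genes. On the armadillo side 4 of 9 (44.4%) passed it, near the 36.1% of all genes. None passed it on the platypus side, beside 9.93% and 11.0% of all genes. UBA1, the main ubiquitin-activating enzyme, stood at 809 CPM in dog and 895 in armadillo, against 4.90 in platypus (11 reads). VCP, which extracts ubiquitinated proteins from membranes and complexes, was abundant in all 3, at 978, 1204 and 1719 CPM in dog, armadillo and platypus. Its cofactor NPLOC4 stood at 144 and 132 CPM in dog and armadillo and was listed at 0 in platypus. UFD1L of the same list, however, stood at 59.9, 31.6 and 69.5 CPM and did not pass the limit in any comparison. NGLY1, which activates the transcription factor NFE2L1, stood at 50.9, 45.3 and 0.891 CPM (2 reads in platypus).

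NFE2L1, which drives proteasome genes when the proteasome is overloaded, stood at 155 CPM in dog and 761 in armadillo, and its relative NFE2L2, the regulator of the oxidative stress response, at 114, 497 and 8.91 CPM in dog, armadillo and platypus. Both factors were at least 4-fold lower in dog than in armadillo, and of the 13 genes of this list 1 was higher in dog and 2 in armadillo, beside 12.6% and 13.2% of all genes. Of 4 peptidases that shorten the products of the proteasome, TPP2 (101, 69.0 and 10.7 CPM) and THOP1 (232, 44.9 and 3.57) passed the limit on the side of either eutherian (beside 32.0% of all genes for dog and 36.1% for armadillo). None passed it on the platypus side, beside 9.93% and 11.0% of all genes. Of 5 such genes shared by dog and armadillo, THOP1 alone passed the limit, and it was higher in dog, beside 12.6% and 13.2% of all genes. These peptidases are too few to be read against those shares.

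Other complexes of many subunits also held genes in both directions. Against platypus, 6 of 33 cytosolic ribosomal protein genes were higher in dog and 14 lower (18.2% and 42.4%, median log2 fold -1.57), beside 32.0% and 9.93% of all genes and their median of 0.61. Of 42 such genes 9 were higher in armadillo than in platypus and 7 lower (21.4% and 16.7%, median -0.69), beside 36.1% and 11.0% and a median of 1.06. Between the eutherians 2 of 28 were higher in dog and 7 in armadillo (7.14% and 25%, median -0.03), beside 12.6% and 13.2% and a median of 0.00. For the chaperonin, a ring-shaped folding machine with few matched genes to set beside those shares, 0 of 2 genes passed the limit between dog and platypus, 2 of 5 were higher in armadillo than in platypus (median -0.54), and 1 of 5 was higher in dog than in armadillo (median 1.19). With 1 library per species no test of these lists against the proteasome was possible.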

How the data were processed

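Per the labels' protocols, RNA was isolated with columns and DNase before library preparation with Illumina methods. Bowtie was used, per the submitters' processing notes. Not given in the sources used here are its version, the genome builds, the annotation and how reads that match several places were treated, so genes with close copies are uncertain. The deposited dog values are estimated counts, each equal to the mapped bases divided by 34 (516 not whole), and they were rounded. The dog table also holds deposited scores: mapped bases and a length-scaled relative abundance without a stated unit. Reads divided by it gave whole gene lengths, up to 1 fitted constant, for 100% of 5644 genes with many reads (within 0.1 bases). The deposited armadillo and platypus values are raw counts per gene, by their headers. No gene without a read is listed for armadillo. Lines of totals were left out.

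Genes were matched by upper-case symbols that occur once in a table. Spreadsheet dates and UniProt entry names were not matched. Folds of all genes used CPM with a pseudocount of 1, which understates folds of low genes, and a 4-fold limit. Folds of named genes are plain ratios of CPM with exact 95% intervals that condition on the summed counts. Lacking molecular identifiers, reads are not independent molecules, so intervals may be too narrow. Alternatives were median-of-ratios scaling (factors 0.797 for dog, 0.997 for armadillo and 1.20 for platypus, over 3490 genes), upper-quartile scaling, totals over shared genes, a pseudocount of 0.1, filters on low genes, a 2-fold limit, summed duplicate symbols and RefSeq symbols for 91 dog genes named by accession. Python 3.11.15, pandas 2.3.3, NumPy 2.4.6 and SciPy 1.17.1 were used, and the calls were tested on simulated counts. The members and lists were chosen with earlier results of these data known. In full were given PSMB4, PSMD2, the catalytic subunits, members at 0 or without a row, the largest and smallest folds, and related genes past the limit against platypus. No sequences were used here.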

Additional observations from a re-analysis of the deposited data

How the results depend on the processing

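Between dog and platypus the median log2 fold of the members, 0.58 as reported, was 0.16 with median-of-ratios scaling, 0.20 with upper-quartile scaling, 0.99 with a pseudocount of 0.1, -0.13 without genes at 0 and -0.25 over the genes at 2 CPM or more in each of the libraries. The value of 0.16 was the fold of PSMB11, which had 2 reads in dog and 0 in platypus. The 9 members higher in dog became 5 of the 24 left without genes at 0 and 4 with 2 CPM required, where fewer members were left. Beside these stood 28.7% and 25.9% of all genes left by the same filters. The 4 higher in platypus became 8 with median-of-ratios scaling and 10 at a 2-fold limit (13.5% and 16.4% of all genes). Between armadillo and platypus the median, -1.05 as reported, was -1.32 with median-of-ratios scaling, -1.37 without genes at 0 and -1.46 with 2 CPM required. The 7 members higher in armadillo became 3 of the 24 left without genes at 0 and 2 with 2 CPM required, where again fewer members were left. Beside these stood 27.5% and 22.9% of all genes left by the same filters. The counts fell because members at or near 0 in platypus drop out. The 5 higher in platypus became 9 with median-of-ratios scaling and 14 at a 2-fold limit (13.2% and 19.1% of all genes). Between dog and armadillo the median, 0.52 as reported, was 0.20 with median-of-ratios scaling, 0.19 with upper-quartile scaling and 0.59 with totals over shared genes, and at a 2-fold limit 8 of 33 members were higher in dog and 5 in armadillo (26.7% and 22.4% of all genes). Upper-quartile scaling shifted the median of all genes by -0.23 for dog over platypus and -0.22 for dog over armadillo, and totals over shared genes by 0.14 and 0.12 for dog and armadillo over platypus. The cause of the other shifts was not tested. Of 90 member folds over the 3 comparisons, 70 moved by more than their counting interval with median-of-ratios scaling, 49 with upper-quartile scaling, 8 with totals over shared genes and 0 with a pseudocount of 0.1, where genes at 0 have no upper limit to their interval and could not count as moved. No fold past the limit changed sign under these 4 settings, and the other alternatives leave a gene's own fold as it is. No paired analysis was possible because each species has 1 library. Platypus, with the fewest reads, sets the depth limit of 1.34 CPM for a gene at 0.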
